A study of Homo sapiens with 18 samples.

Results

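Expression of 10 genes of the epithelial-mesenchymal transition (EMT) was followed in mRNA sequencing of 18 libraries from 3 head and neck squamous cell carcinoma (HNSCC) cell lines. The genes were taken by name from a count table of 19901 genes: the transcription factors SNAI1, SNAI2, TWIST1, TWIST2, ZEB1 and ZEB2, the mesenchymal markers VIM, FN1 and CDH2, and the epithelial transcription factor GRHL2. FaDu (hypopharynx) and SCC-9 (tongue) were established from primary carcinomas and Detroit 562 from a metastasis of a pharyngeal carcinoma. Each line gave 3 libraries of untreated cells (control) and 3 of cells given 50 ng/ml hepatocyte growth factor (HGF), the ligand of the receptor tyrosine kinase Met. The treatment lasted 16 h by the sample records and the methods of the study, although the series record states 48 h. All cells were detached with trypsin. SCC-9 had its own medium, DMEM F12 with hydrocortisone, whereas the other lines were kept in MEM-α, so line and medium cannot be told apart where SCC-9 is compared with the other lines. Each line stands for 1 tumor.

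In EMT, epithelial cells loosen their junctions and take on a mesenchymal, motile form. Factors of the Snail (SNAI1, SNAI2), Twist and Zeb families repress epithelial genes such as CDH1, which codes for E-cadherin, by binding E-box sequences. Vimentin (VIM), fibronectin (FN1) and N-cadherin (CDH2) are commonly used markers of the mesenchymal state, while GRHL2 maintains epithelial genes and is part of a mutually repressive loop with ZEB1. HGF, also named scatter factor, is a classical inducer of cell scattering in epithelial cells.

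A library held 35304770 to 44003970 counts over all genes, with a median of 40138919. All 10 genes passed the filter on low counts that left 15475 genes for testing, ZEB2 only through SCC-9. The squamous marker KRT5 was between 1490 and 6521 CPM, the TMM-normalized count scaled to library size, in untreated cells of all lines and TP63 between 97.5 and 218 CPM. Detroit 562 held almost no KRT14, another basal keratin, at 1.23 CPM on average. The summed level of 8 fibroblast markers was 126 to 140 CPM in untreated SCC-9, 30.2 to 54.6 CPM in Detroit 562 and 4.25 to 6.96 CPM in FaDu. In SCC-9 it came mostly from COL1A1 (77.9 CPM) and FAP (42.6 CPM), while LUM, COL3A1, PDGFRA and PDGFRB were each below 0.24 CPM in every untreated SCC-9 library. The summed level of 4 leukocyte markers was 8.08 to 10.0 CPM in untreated SCC-9, 4.37 to 6.15 CPM in FaDu and 0.118 to 0.217 CPM in Detroit 562. It came almost wholly from CD14 in SCC-9 (8.89 CPM) and FaDu (4.96 CPM), while PTPRC was below 0.09 CPM in all untreated libraries. The 3 endothelial markers summed to 0.816 to 8.34 CPM. The part of these markers in the differences between lines was not tested. In mRNA from whole cultures, fewer cells that express a gene and less RNA per cell cannot be told apart.

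The sequence upstream of the start was at hand for 6 of the 10 genes (TWIST2, ZEB1, ZEB2, VIM, FN1 and CDH2) from RefSeq on GRCh38.p14. The 250 bases before the start are shown for FN1 and VIM, the genes that lay furthest apart between the lines, for TWIST2, which had the opposite order of lines and rose with HGF, and for ZEB1, the gene with the most even level. Capitals mark an E-box of the form CACCTG or CAGGTG, found by a search of both strands.
FN1, chr2:215436069-215436318, minus strand: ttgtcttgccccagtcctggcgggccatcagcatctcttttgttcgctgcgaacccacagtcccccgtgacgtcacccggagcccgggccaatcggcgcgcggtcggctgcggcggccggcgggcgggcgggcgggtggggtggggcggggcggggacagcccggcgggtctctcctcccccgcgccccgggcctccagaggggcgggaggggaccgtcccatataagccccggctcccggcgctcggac
VIM, chr10:17227991-17228240, plus strand: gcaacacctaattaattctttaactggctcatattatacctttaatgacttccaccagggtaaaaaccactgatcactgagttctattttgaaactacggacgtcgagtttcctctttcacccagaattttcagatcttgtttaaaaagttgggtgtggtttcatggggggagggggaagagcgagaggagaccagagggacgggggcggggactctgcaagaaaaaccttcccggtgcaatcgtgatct
TWIST2, chr2:238847835-238848084, plus strand: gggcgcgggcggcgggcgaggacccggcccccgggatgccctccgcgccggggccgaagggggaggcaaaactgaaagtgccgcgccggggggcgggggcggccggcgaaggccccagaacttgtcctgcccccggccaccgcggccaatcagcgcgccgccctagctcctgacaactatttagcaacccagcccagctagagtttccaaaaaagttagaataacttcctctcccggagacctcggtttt
ZEB1, chr10:31318167-31318416, plus strand: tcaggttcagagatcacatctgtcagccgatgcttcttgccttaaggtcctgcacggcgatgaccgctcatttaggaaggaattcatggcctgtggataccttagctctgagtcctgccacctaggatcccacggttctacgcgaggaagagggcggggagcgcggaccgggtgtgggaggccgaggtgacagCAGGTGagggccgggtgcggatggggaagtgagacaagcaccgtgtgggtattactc

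Only ZEB1 held such an E-box among the 6 sequences, with its first base 57 bases before the RefSeq start. The motif was in 17.5% of 27305 RefSeq windows of the same length. A Grainyhead-type motif (AACNGGTT, either strand) was in none of the 6 and in 1.48% of all windows. GC content differed widely, at 76.4% for FN1, 68.4% for TWIST2, 59.2% for ZEB1 and 46.0% for VIM. By the deposited coordinates on GRCh38, FN1 spans chr2:215360440-215436172 (minus strand), VIM chr10:17228259-17237593 (plus), TWIST2 chr2:238848032-238910543 (plus), TWIST1 chr7:19020991-19117672 (minus) and ZEB1 chr10:31318495-31529814 (plus). Within the extents of ZEB1, ZEB2 and CDH2, GENCODE 44 also places non-coding genes on the same strand, such as the pseudogene SPTLC1P1 in ZEB1, whose reads would add to these genes. The RefSeq starts were not those of the deposited extents. The windows of FN1 and TWIST2 reached into these extents, those of ZEB2 and CDH2 lay inside them, and those of VIM and ZEB1 ended before them. The matches describe letters in these windows and not binding.

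The untreated lines were compared first, to see which EMT genes each line carried before HGF was given. SCC-9 differed from both other lines in 9 of the 10 genes, of which ZEB2 passed the filter only through SCC-9 and is only described. FN1 and VIM were between 281-fold and 1452-fold higher in SCC-9, SNAI1, SNAI2, TWIST1 and ZEB2 were higher as well, and TWIST2, CDH2 and GRHL2 were lower. For CDH2, Detroit 562 lay further from FaDu (log2 difference 2.14) than FaDu did from SCC-9 (0.77). TWIST1 differed more for Detroit 562 minus FaDu (1.18) than for Detroit 562 minus SCC-9 (-0.93). Differences between lines were tested with the quasi-likelihood F-test of edgeR. A gene was called if its Benjamini-Hochberg adjusted p was below 0.1 and its log2 difference was at least 0.4 in size, and the same rule served for HGF. Of all genes tested, 65.4% were called between Detroit 562 and SCC-9 and 64.2% between FaDu and SCC-9, so that large parts of the transcriptome differed between the lines.

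**Figure D1:**
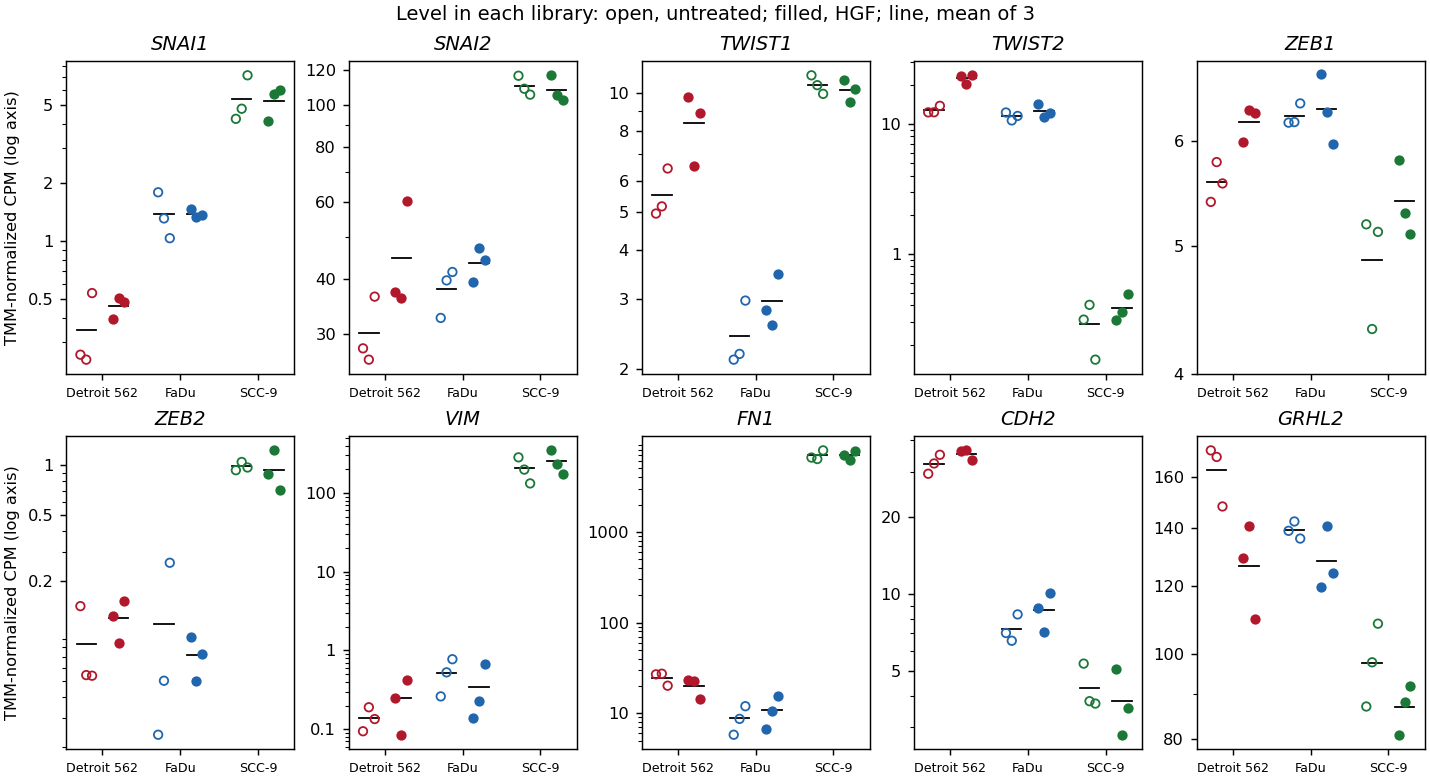
TMM-normalized CPM of the 10 genes in each of 18 libraries on log axes that differ between panels, with open points for control, filled points for HGF and a black line for the mean of 3 libraries. FN1 and VIM were far higher in SCC-9, TWIST2 was nearly absent there, and the filled points of TWIST2 in Detroit 562 lay above the open ones.

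Among the markers, FN1, an extracellular matrix glycoprotein, was at 6592, 6353 and 7909 CPM in the untreated SCC-9 libraries (6951 ± 838 CPM, SD, n = 3). It made up 0.668% to 0.824% of all counts there and ranked 2 among 19901 genes by mean CPM. In Detroit 562 it was at 26.8, 27.3 and 20.1 CPM and in FaDu at 5.79, 8.66 and 11.9 CPM. The groups did not overlap, and FN1 in SCC-9 was 281-fold above Detroit 562 and 789-fold above FaDu (adjusted p = 1.62e-12 and 5.94e-13). Between the 2 other lines it was 2.81-fold higher in Detroit 562 (log2 difference 1.49 ± 0.273, SE, adjusted p = 0.00011).

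VIM, the intermediate filament protein of mesenchymal cells, was at 283, 198 and 132 CPM in untreated SCC-9. The spread between these libraries was wide (SD 75.7 CPM). In Detroit 562 the raw counts of VIM were 4, 7 and 5 and in FaDu 11, 21 and 33, so that vimentin mRNA was close to the limit of what was counted in both lines. The fitted log2 difference was -10.50 ± 0.514 for Detroit 562 minus SCC-9 and -8.60 ± 0.438 for FaDu minus SCC-9 (adjusted p = 1.07e-11 and 2.02e-11). VIM was lower in Detroit 562 than in FaDu by 1.90 on the log2 scale, with an adjusted p of 0.0598. This last call rested on single libraries, since the adjusted p became 0.151 without Detroit 562 control 1, 0.114 without Detroit 562 control 3 and 0.205 without FaDu control 3.

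CDH2, the neural cadherin, did not follow the other markers. It was at 29.5, 32.4 and 35.0 CPM in Detroit 562, at 7.03, 6.55 and 8.31 CPM in FaDu and at 5.33, 3.80 and 3.72 CPM in SCC-9. The lines did not overlap. CDH2 in Detroit 562 was 4.42-fold above FaDu and 7.52-fold above SCC-9 (adjusted p = 1.26e-08 and 3.75e-10), and in FaDu 1.70-fold above SCC-9 (adjusted p = 0.00142). The line with the most CDH2 was thus not the line with the most VIM and FN1.

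Of the Snail factors, SNAI2 (Slug) was the more abundant. It was at 116, 109 and 105 CPM in untreated SCC-9, at 27.8, 26.2 and 36.5 CPM in Detroit 562 and at 32.6, 39.7 and 41.5 CPM in FaDu. SNAI2 was lower than in SCC-9 by 1.87 on the log2 scale in Detroit 562 and by 1.54 in FaDu (adjusted p = 2.52e-08 and 2.64e-07), while Detroit 562 and FaDu overlapped (log2 difference -0.33 ± 0.165, adjusted p = 0.0813). That difference stayed under the minimum size, but passed it without Detroit 562 control 3 (-0.49, adjusted p = 0.0191) or without FaDu control 1 (-0.43, adjusted p = 0.0431). SNAI1 (Snail) was at 4.26, 4.80 and 7.14 CPM in SCC-9, at 1.78, 1.31 and 1.03 CPM in FaDu and at 0.259, 0.244 and 0.539 CPM in Detroit 562, where it had 9 to 20 raw counts. The lines formed 3 separate steps, with SNAI1 in FaDu 3.95-fold above Detroit 562 and in SCC-9 3.92-fold above FaDu (adjusted p = 3.06e-05 and 2.03e-06).

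The paralogs TWIST1 and TWIST2, basic helix-loop-helix factors, differed in opposite directions between SCC-9 and the other lines. TWIST1 was at 11.1, 10.5 and 9.94 CPM in SCC-9, at 4.95, 5.16 and 6.44 CPM in Detroit 562 and at 2.11, 2.18 and 2.98 CPM in FaDu, without overlap. TWIST2 was at 12.3, 12.3 and 13.8 CPM in Detroit 562 and at 12.2, 10.6 and 11.5 CPM in FaDu, but in SCC-9 only 13, 17 and 6 raw counts were found. TWIST2 was 43.3-fold higher in Detroit 562 and 38.8-fold higher in FaDu than in SCC-9 (adjusted p = 4.31e-13 and 7.34e-13). TWIST1 was lower than in SCC-9 by 0.93 on the log2 scale in Detroit 562 and by 2.11 in FaDu (adjusted p = 6.59e-05 and 8.37e-09). Detroit 562 had 2.27-fold more TWIST1 than FaDu (adjusted p = 1.14e-05), and TWIST2 did not differ between these lines beyond the threshold (log2 difference 0.16 ± 0.138, adjusted p = 0.322).

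ZEB1, a zinc finger repressor of CDH1, was the most even of the 10 genes. Its libraries lay between 4.33 and 6.41 CPM over the untreated lines. ZEB1 in FaDu was 1.29-fold above SCC-9, which passed the adjusted p (0.00401) but not the minimum size (log2 difference 0.36 ± 0.101). It reached that size without SCC-9 control 1 (0.41, adjusted p = 0.00499) or control 3 (0.40, adjusted p = 0.00639). ZEB2, its paralog, had 1 to 11 raw counts per untreated library in Detroit 562 and FaDu and 38 to 44 in SCC-9. The fitted difference of ZEB2 from SCC-9 was -3.48 ± 0.488 in Detroit 562 and -3.10 ± 0.458 in FaDu on the log2 scale. ZEB2 passed the filter on low counts only through SCC-9, where it was higher, so this difference is a description and no test.

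GRHL2, a Grainyhead factor that maintains epithelial junction genes, was at 172, 169 and 148 CPM in Detroit 562, at 139, 142 and 136 CPM in FaDu and at 87.1, 97.9 and 108 CPM in SCC-9. The lines did not overlap, yet the range was narrow. GRHL2 was 1.67-fold higher in Detroit 562 and 1.42-fold higher in FaDu than in SCC-9 (adjusted p = 3.01e-06 and 0.00017). E-cadherin (CDH1) had another order, with 487 ± 25.0 CPM in SCC-9, 302 ± 34.0 CPM in Detroit 562 and 259 ± 35.6 CPM in FaDu (SD, n = 3). For CDH1, the libraries of Detroit 562 (266 to 333 CPM) and FaDu (221 to 292 CPM) overlapped. The line with the most VIM and FN1 mRNA thus also had the most CDH1 mRNA.

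Between Detroit 562 and FaDu, 5 of the 10 genes were called, against 61% of all genes tested. TWIST1, FN1 and CDH2 were higher in Detroit 562, and SNAI1 and VIM were higher in FaDu. The libraries did not overlap for 8 of the 10 genes between these lines, and for 10 of 10 in either comparison with SCC-9, where 74%, 80.7% and 78.6% of all genes had no overlap for Detroit 562 against FaDu, Detroit 562 against SCC-9 and FaDu against SCC-9. Beside these shares the counts are no result about the 10 genes as a group. The comparisons share libraries and are not independent of each other.

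**Figure D2:**
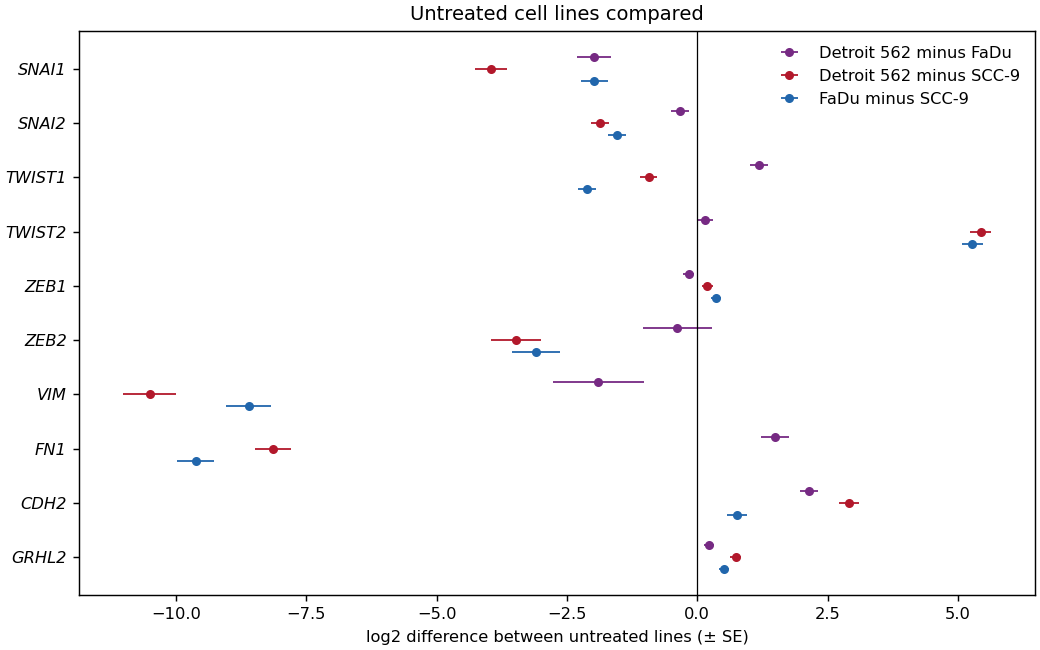
Log2 differences between untreated lines for the 10 genes, with bars of 1 SE from the edgeR fit of all 18 libraries. The differences from SCC-9 reached -10.50 for VIM and 5.44 for TWIST2, while those of ZEB1 were 0.19 and 0.36.

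To set the genes side by side, CPM was divided by the length of all exons of a gene in kilobases. In untreated Detroit 562 and FaDu, GRHL2 led with 26.9 ± 2.14 and 23.0 ± 0.522 CPM per kilobase (SD, n = 3), followed by SNAI2 with 9.20 and 11.6 and TWIST2 with 5.99 and 5.37. In untreated SCC-9, FN1 led with 404 CPM per kilobase, ahead of VIM with 39.5, SNAI2 with 33.6 and GRHL2 with 16.2, and VIM and SNAI2 overlapped. VIM and ZEB2 were the last in Detroit 562 and FaDu. SNAI2 was thus the highest of the 6 Snail, Twist and Zeb factors per kilobase in all 3 untreated lines, and ZEB2 was the lowest in Detroit 562, FaDu and SCC-9. Reads were counted over whole gene extents with introns, and the exons make up only 2.07% of the 96.7 kb extent of TWIST1, 3.41% of TWIST2, 4.09% of ZEB1 and 3.79% of CDH2. The order changed in many places when the full extent was the length. SNAI2 then came before GRHL2 in Detroit 562 and FaDu and before VIM in SCC-9, and TWIST2 took the last place from ZEB2 in SCC-9. In FaDu, SNAI1 took place 3 ahead of TWIST2, VIM took place 6 and TWIST1 place 9. In Detroit 562, FN1 came before TWIST2.

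**Figure D3:**
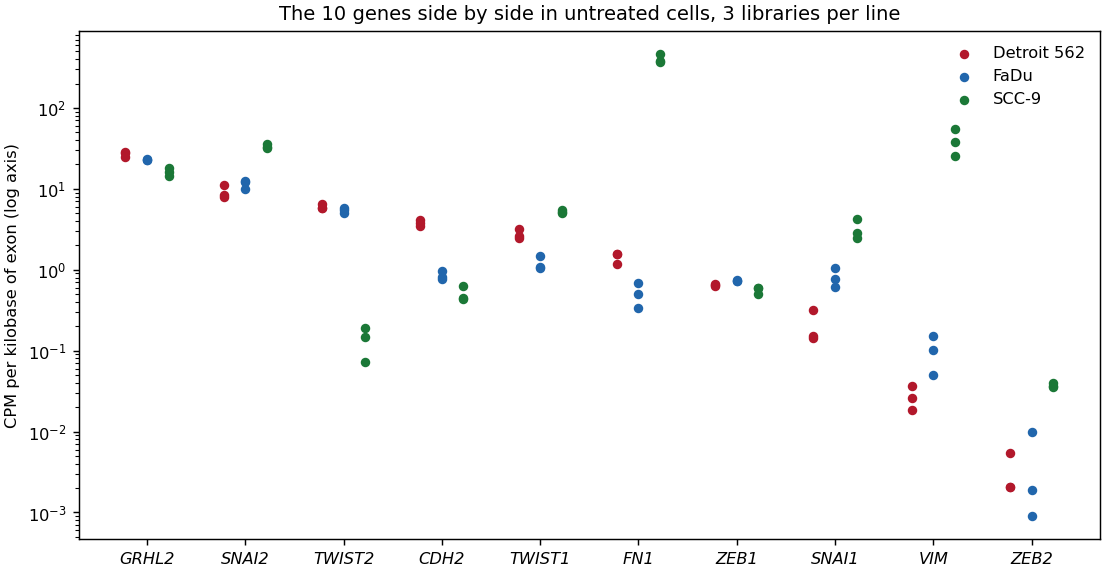
CPM per kilobase of exon of each gene in the 3 untreated libraries of each line, on a log axis, ordered by the mean in Detroit 562. GRHL2 was highest in Detroit 562 and FaDu, and FN1 in SCC-9 at about 404 CPM per kilobase.

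The second question was which of these genes respond to HGF. In Detroit 562, TWIST2, TWIST1 and SNAI2 rose by 1.76-fold, 1.52-fold and 1.48-fold, and no member of the 10 was called lower. GRHL2 was lower in each same-number pair, by less than the minimum size. These 3 called genes of 10 compare with 6.16% of all genes tested that were called higher in Detroit 562 and 17.9% called in either direction.

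TWIST2 was at 12.3, 12.3 and 13.8 CPM in control and at 23.5, 20.3 and 23.6 CPM in HGF-treated Detroit 562. Every treated library was above every control (log2 fold change 0.82 ± 0.138, adjusted p = 0.00138). TWIST1 went from 4.95, 5.16 and 6.44 CPM to 9.77, 6.53 and 8.88 CPM. Its groups did not overlap, though the lowest treated library was just above the highest control (0.61 ± 0.164, adjusted p = 0.0142). SNAI2 went from 27.8, 26.2 and 36.5 CPM to 37.4, 36.3 and 60.1 CPM, and here the groups overlapped (0.56 ± 0.165, adjusted p = 0.0213). The ratios of same-number libraries were 1.35, 1.38 and 1.65, all above 1. Without HGF library 3, SNAI2 was no longer called (0.29, adjusted p = 0.14), in a fit that kept control 3, the highest control.

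GRHL2 in Detroit 562 was at 172, 169 and 148 CPM in control and at 129, 141 and 110 CPM with HGF. All treated libraries were below all controls, and the log2 fold change of -0.36 ± 0.0974 passed the adjusted p (0.0135) but not the size of 0.4. It was called when Detroit 562 control 3 (-0.43, adjusted p = 0.0067) or HGF 2 (-0.45, adjusted p = 0.00976) was left out. The groups did not overlap for 4 of the 10 genes, TWIST1, TWIST2, ZEB1 and GRHL2, against 38.2% of all genes. ZEB1 changed little in size, from 5.40, 5.79 and 5.57 CPM to 5.99, 6.33 and 6.30 CPM (0.15 ± 0.102, adjusted p = 0.291).

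The mesenchymal markers were not called in Detroit 562. CDH2 was at 36.2, 36.4 and 33.3 CPM with HGF (log2 fold change 0.13 ± 0.169, adjusted p = 0.611). FN1 was at 23.4, 22.5 and 14.3 CPM, and each treated library was below its same-number control, with ratios of 0.874, 0.826 and 0.709 (-0.30 ± 0.262, adjusted p = 0.429). VIM had 10, 3 and 14 raw counts with HGF, and its log2 fold change of 0.84 had an SE of 1.05 (adjusted p = 0.592), which leaves a change of either sign within the error. SNAI1 (0.42 ± 0.372, adjusted p = 0.436) and ZEB2 (0.47 ± 0.680, adjusted p = 0.648), both at 20 counts or less per library, were equally undetermined at this depth. The highest level of TWIST2 in the whole series was in HGF-treated Detroit 562, whereas HGF-treated Detroit 562 overlapped untreated FaDu in SNAI2 and stayed below SCC-9 in SNAI2.

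In FaDu and SCC-9, edgeR called none of the 10 genes, against 0.0258% and 0% of all genes tested. At an unadjusted p below 0.05 there were 0 of the 10 in FaDu and 0 in SCC-9 (8.06% and 4.14% of all genes), and DESeq2 called 0 in both. Control and HGF libraries were separate for 0 of the 10 genes in FaDu (9.41% of all genes) and for 0 in SCC-9 (17.4% of all genes), so the genes are described by their values. In FaDu, TWIST1 was at 2.11, 2.18 and 2.98 CPM in control and at 2.83, 2.59 and 3.48 CPM with HGF (log2 fold change 0.29 ± 0.179, adjusted p = 0.655). TWIST2 went from 12.2, 10.6 and 11.5 CPM to 14.2, 11.3 and 12.1 CPM (0.13 ± 0.138, adjusted p = 0.801), and SNAI2 from 32.6, 39.7 and 41.5 CPM to 39.3, 47.1 and 44.3 CPM (0.20 ± 0.164, adjusted p = 0.735). Every treated library of these 3 genes was above its same-number control, and so it was for CDH2 (8.81, 7.07 and 10.1 CPM with HGF, 0.24 ± 0.180, adjusted p = 0.707) and FN1 (6.77, 10.6 and 15.5 CPM, 0.31 ± 0.276, adjusted p = 0.755). VIM was lower in 3 of 3 pairs, with 6, 9 and 28 raw counts after 11, 21 and 33 in control (-0.59 ± 0.698, adjusted p = 0.828), and so was GRHL2, with 120, 140 and 124 CPM after HGF (-0.12 ± 0.0972, adjusted p = 0.733). The share of all genes with 3 of 3 pairs alike was not computed for any line, so pair counts only describe the genes. SNAI1 (1.46, 1.33 and 1.35 CPM with HGF) and ZEB1 (6.75, 6.31 and 5.97 CPM) had log2 fold changes of 0.01 and 0.02, and ZEB2 had 4, 2 and 3 raw counts.

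In SCC-9, HGF-treated cells had 117, 105 and 102 CPM of SNAI2, 10.8, 9.49 and 10.2 CPM of TWIST1 and 7018, 6143 and 7800 CPM of FN1, all within or near the control range, with log2 fold changes of -0.03, -0.05 and 0.01. VIM was at 347, 236 and 175 CPM after 283, 198 and 132 CPM in control (0.31 ± 0.278, adjusted p = 1). The ratios of its same-number pairs were alike, at 1.23, 1.19 and 1.32. TWIST2 had 13, 15 and 20 raw counts with HGF after 13, 17 and 6 in control, and 1 of its 3 pairs was higher (0.39 ± 0.289, adjusted p = 1). SNAI1 was at 4.13, 5.69 and 6.02 CPM with HGF (-0.03), ZEB1 at 5.81, 5.29 and 5.11 CPM (0.15) and ZEB2 at 37, 52 and 29 raw counts (-0.06). CDH2, at 5.07, 2.81 and 3.58 CPM (-0.17 ± 0.195), and GRHL2, at 80.8, 88.1 and 92.0 CPM (-0.17 ± 0.0976), were below their same-number controls in 3 of 3 pairs, and both had an adjusted p of 1. In no line, then, was VIM, FN1 or CDH2 called after HGF.

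**Figure D4:**
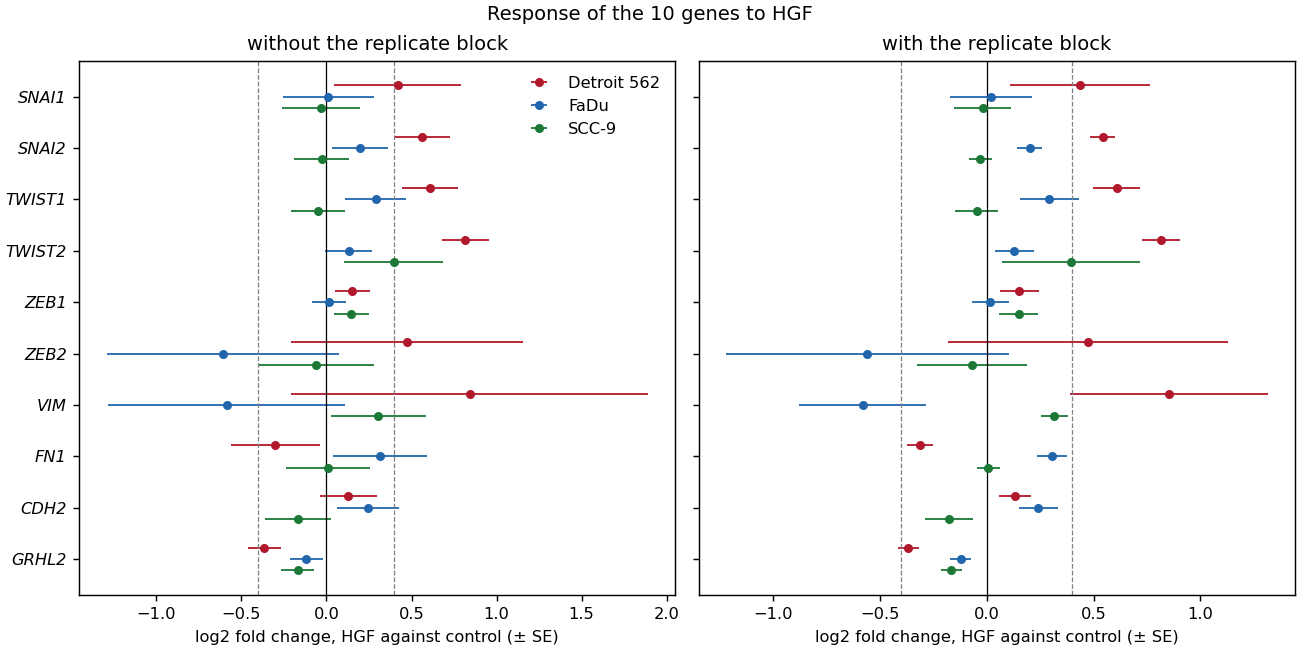
Log2 fold change with HGF of the 10 genes in each line, with bars of 1 SE, without the replicate number in the model (left) and with it as a block within each line (right), and dashed lines at the minimum size of 0.4. SNAI2, TWIST1 and TWIST2 in Detroit 562 lay beyond 0.4 in both panels, and GRHL2 lay below 0 in every line.

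Same-number libraries of a line deviated together, so the comparisons were also fitted with the replicate number as a block. For the HGF comparisons within a line, the block changed none of the calls on the 10 genes, with 21.5% of all genes called in Detroit 562, 5.6% called in FaDu and 1.97% called in SCC-9. It lowered the adjusted p below 0.1 for FN1 in Detroit 562 (-0.31, adjusted p = 0.000875) and FaDu (0.31, adjusted p = 0.0135), for SNAI2 in FaDu (0.20, adjusted p = 0.0379), and for VIM (0.32, adjusted p = 0.0118) and GRHL2 (-0.17, adjusted p = 0.0954) in SCC-9, all under the minimum size. GRHL2 was lower with HGF in 9 of 9 same-number pairs over the 3 lines, with log2 fold changes of -0.36 for Detroit 562, -0.12 for FaDu and -0.17 for SCC-9, and with ratios from 0.742 to 0.987. The share of all genes lower in 9 of 9 pairs was not computed, so this count only describes GRHL2.

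Whether the response to HGF differed between lines was tested by the difference of the responses, called at an adjusted p below 0.1 alone. Without the block, edgeR called none of the 10 genes for Detroit 562 against FaDu, against SCC-9, or for FaDu against SCC-9, where 0.239%, 0.924% and 0% of all genes were called. At an unadjusted p below 0.05 there were 1, 2 and 0 of the 10 (11.6%, 15.4% and 2.18% of all genes), and DESeq2 called 1, 0 and 0. With the block, 4 of the 10 genes were called for Detroit 562 against FaDu (19.1% of all genes) and 4 for Detroit 562 against SCC-9 (26.9% of all genes), and 0 for FaDu against SCC-9 (1.32%). TWIST2 rose more in Detroit 562 than in FaDu, by 0.69 on the log2 scale (blocked adjusted p = 0.0039, unblocked 0.207). SNAI2 and TWIST1 rose more in Detroit 562 than in SCC-9, by 0.57 and 0.66 (blocked adjusted p = 0.000346 and 0.00779, unblocked 0.253 and 0.21). FN1 had opposite directions in Detroit 562 and FaDu, lower in 3 of 3 pairs in the one and higher in 3 of 3 in the other (difference -0.62, blocked adjusted p = 0.0013, unblocked 0.548). Without FaDu HGF 3 the unblocked log2 fold change of FN1 there was -0.01. That fit kept FaDu control 3, so it cannot tell whether the rise within pairs depends on HGF 3. FN1 in FaDu climbed with the replicate number, in control (5.79, 8.66 and 11.9 CPM) and with HGF (6.77, 10.6 and 15.5 CPM). Both comparisons of Detroit 562 share its libraries.

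The genes around these factors were taken from 4 lists. Of 20 epithelial genes, 6 were called lower in HGF-treated Detroit 562 (11.7% of all genes), 0 were called higher and 14 were not called, with a median log2 fold change of -0.32 against -0.0056 over all genes. TJP3, a tight junction protein, fell by 1.80 on the log2 scale (SE 0.318, adjusted p = 0.00177), from 50.5 ± 12.6 to 14.4 ± 5.60 CPM (SD, n = 3). GRHL3, the Grainyhead factor of epidermal barrier formation, fell by 1.66 (adjusted p = 0.00197), GRHL1 fell by 0.73 (adjusted p = 0.00648) and CDH1 fell by 0.49 (adjusted p = 0.00364). CDH1 was at 302 ± 34.0 CPM in control and 215 ± 5.22 CPM with HGF (SD, n = 3), so most of its mRNA remained. Of these 20 genes, 17 were lower in 3 of 3 same-number pairs of Detroit 562, 9 were so for FaDu and 11 for SCC-9. The share of all genes that were lower in 3 of 3 pairs was not computed, so these counts only describe the list. In FaDu and SCC-9, edgeR called 0 of the 20, while the fit with the block called 3 and 2 lower (5.6% and 1.97% of all genes were called in either direction with the block).

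**Figure D5:**
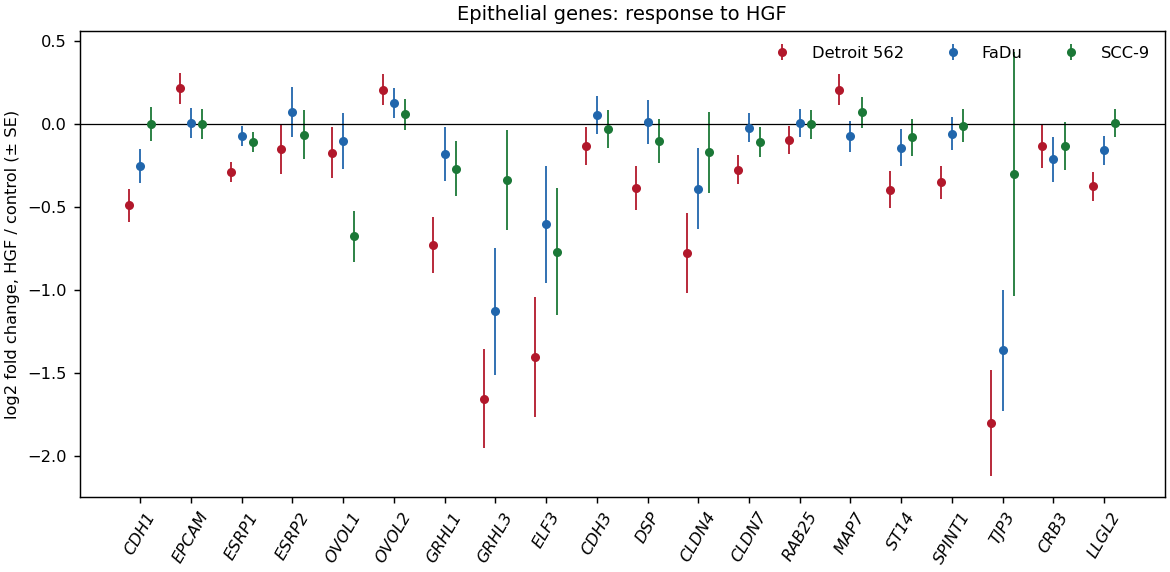
Log2 fold change with HGF of 20 epithelial genes in each line, with bars of 1 SE from the edgeR fit without the block. The values of TJP3 and GRHL3 in Detroit 562 were -1.80 and -1.66, and the median of the list there was -0.32.

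Of 22 mesenchymal and matrix genes, 18 passed the filter and moved in both directions in HGF-treated Detroit 562. In all, 4 were called higher and 3 lower, against 6.16% and 11.7% of all genes. Some of the 18 passed the filter through other lines, such as SPARC and COL6A2, which were below 0.11 CPM in every untreated Detroit 562 library, so that no median is given. TAGLN, an actin-binding protein of smooth muscle, rose by 1.18 on the log2 scale (SE 0.156, adjusted p = 0.000305), from 18.9 ± 2.96 to 43.0 ± 2.39 CPM (SD, n = 3). COL1A2, a chain of type I collagen, fell by 1.04 and COL5A1 by 0.66. The libraries of COL1A2 overlapped, at 12.7 to 32.9 CPM in control and 4.14 to 16.1 CPM with HGF. The fit with the block called 5 higher and 6 lower, with 21.5% of all genes called in either direction. The summed level of the 8 fibroblast markers, which share COL1A1 and COL1A2 with this list, went from 30.2 to 54.6 CPM in control to 15.3 to 27.8 CPM with HGF, and its part in the result was not tested. In untreated cells, 12 of the 18 were called lower and 3 higher in Detroit 562 than in SCC-9 (65.4% of all genes called in either direction), and 15 were called lower and 3 higher in FaDu than in SCC-9 (64.2%). SPARC, a matrix glycoprotein, was at 49.6 ± 8.11 CPM in SCC-9 and below 0.28 CPM in every untreated library of the other lines. SPARC passed the filter on low counts only through SCC-9, where it was higher, so its difference is a description and no test. The counts of called genes include it and only describe the list. TAGLN was lower than in SCC-9 by 2.30 and 3.72 on the log2 scale in Detroit 562 and FaDu (adjusted p = 8.45e-10 and 6.37e-12).

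Among 11 other transcription factors tied to EMT, 2 were called higher and 2 lower in HGF-treated Detroit 562 (6.16% and 11.7% of all genes). SOX9 rose by 1.85 on the log2 scale (adjusted p = 0.00344), from 2.34 ± 1.47 to 8.39 ± 4.68 CPM, and FOXC1 fell by 0.71 (adjusted p = 0.00544). Of 6 genes for dimer partners of Twist factors and their inhibitors, TCF4 was called lower (fell by 0.47, adjusted p = 0.033) and none higher. Of all genes, 11.7% were called lower, so this count is no result about the list. ID1, ID2 and ID3, which code for inhibitors that bind E proteins, had log2 fold changes of -0.40, -0.43 and -0.40, not called without the block (adjusted p = 0.251, 0.277 and 0.107) and called lower with it (adjusted p = 0.00144, 0.000681 and 1.37e-05). With the block, 21.5% of all genes were called in either direction in Detroit 562. Neither list had a gene called in FaDu or SCC-9 without the block. With it, SOX9 and RUNX2 were called higher in FaDu, and ID2 and ID3 lower in SCC-9. In these fits 5.6% and 1.97% of all genes were called in either direction.

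For 9 of the 10 genes, the gene with the most similar pattern is given. It was the one with the smallest root mean square difference of centred log2 CPM over 18 libraries, which is a description without a test. It was MSX1 for TWIST2 (0.310), MYO1E for SNAI2 (0.109), CEBPD for SNAI1 (0.353), C14orf166 for ZEB1 (0.0661) and ODZ4 for ZEB2 (0.390). It was FAP for VIM (0.701), SAA2 for FN1 (0.495), UFSP2 for CDH2 (0.258) and NFE2L2 for GRHL2 (0.0858). The differences between lines dominate these patterns. The range of the 6 group means was 10.4 log2 units for VIM, 9.68 for FN1 and 6.13 for TWIST2, but 0.38 for ZEB1 and 0.90 for GRHL2, while the SD within groups was 0.71, 0.39, 0.29, 0.085 and 0.13 for these genes.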

How the data were processed

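RNA of 18 samples was sequenced from stranded mRNA libraries. Per the labels and the methods of the study, the authors trimmed reads with Cutadapt, aligned them with STAR 2.5.2b to GRCh38.p12 with the GENCODE 28 annotation, and the deposited values are raw counts of reads over whole gene extents, introns included, made with bedtools. The methods of the study say that the experiment was repeated, and the labels do not name separate cultures, so p-values measure the spread between these samples only.

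The analysis used edgeR 4.0.16 in R 4.3.3 (TMM, filterByExpr on 6 groups, quasi-likelihood test, 1 fit of all 18 libraries, Benjamini-Hochberg adjustment over 15475 genes). All adjusted p-values are from this test unless DESeq2 1.42.0 is named. The call rule took the limits of the study, an adjusted p under 0.1 with a log2 value of 0.4 or more in size. The study applied them to shrunken fold changes of DESeq2, whereas here they were applied to unshrunken values of edgeR. The study reported more genes at these limits in FaDu and SCC-9 than were called here. Differences of responses used the adjusted p alone. CPM values are TMM-normalized. The fit without the replicate block was checked on simulated data, which held no deviations shared by same-number libraries. The fit with the block was not checked in this way.

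The 10 genes and all lists were chosen with earlier results of these data known. The 10 genes were named in every comparison. From each other list up to 4 called genes with the smallest adjusted p were to be named, and a few more are named beside them, among them COL1A2 and the ID genes, which were chosen after their values were seen. Of 3 most similar genes, the first is given. Some results on single genes are not reported here.

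Replicate numbers come from the sample titles. Deviations of same-number libraries from their group means correlated at 0.161 to 0.563 in every one of 9 pairs. Those of different numbers correlated at -0.227 to -0.136 on average per line, which follows largely from taking deviations from group means. By the same-number values, the numbers were taken to pair control and HGF libraries within a line, and a replicate block was an alternative. It pairs no libraries between lines. Exon lengths came from GENCODE 44, which matched 19802 of 19901 genes, and upstream sequences from RefSeq (GRCh38.p14). Alternatives were other size factors, filters, DESeq2, fits of only the lines compared, stricter thresholds and leaving out each library.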

Additional observations from a re-analysis of the deposited data

Results flagged for a closer look

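In all, 8 differences of the HGF response between lines passed an adjusted p of 0.1 in edgeR's quasi-likelihood test with the replicate number as a block, and none of them did without it. For Detroit 562 minus FaDu, these were TWIST2 (log2 difference 0.69, adjusted p = 0.0039), SNAI2 (0.34, adjusted p = 0.0175), FN1 (-0.62, adjusted p = 0.0013) and GRHL2 (-0.25, adjusted p = 0.0332). For Detroit 562 minus SCC-9, they were TWIST1 (0.66, adjusted p = 0.00779), SNAI2 (0.57, adjusted p = 0.000346), FN1 (-0.32, adjusted p = 0.014) and GRHL2 (-0.20, adjusted p = 0.0561). They stand here because a test of the difference itself passed the threshold in the fit with the block. Without the block, their adjusted p in the same test lay between 0.207 and 0.724. Of all genes, 19.1% and 26.9% were called in these comparisons with the block, and the Detroit 562 libraries enter both.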

How the results depend on the processing

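Over all alternatives, 1366 log2 values of the 10 genes were recomputed. Of these, 1299 kept their direction and their side of the thresholds, 18 became called, 12 lost their call and 37 turned their direction. The 37 belong to 18 differences that were not called before or after (lowest adjusted p 0.625 and 0.207). ZEB1 turned for Detroit 562 minus SCC-9 responses with DESeq2 size factors (-0.0050) and DESeq2 (-0.0058), and the other 35 came from leaving out 1 library. The ranges with each library left out were, for HGF in FaDu, -0.16 to 0.24 for SNAI1, -1.08 to 0.92 for ZEB2, -0.030 to 0.071 for ZEB1 and -0.011 to 0.60 for FN1. For HGF in SCC-9 they were -0.087 to 0.015 for SNAI2, -0.079 to 0.11 for FN1, -0.42 to 0.024 for CDH2, -0.17 to 0.22 for SNAI1 and -0.30 to 0.10 for ZEB2. For the difference of responses they were -0.45 to 1.71 for ZEB2 and -0.24 to 0.00045 for CDH2 (Detroit 562 minus FaDu), -0.040 to 0.090 for ZEB1 (Detroit 562 minus SCC-9), and -0.20 to 0.27 for SNAI1, -1.02 to 0.98 for ZEB2, -0.020 to 0.14 for GRHL2, -0.019 to 0.59 for FN1 and -0.57 to 0.039 for TWIST2 (FaDu minus SCC-9). For untreated Detroit 562 minus FaDu, ZEB2 ranged from -1.01 to 1.157. The 3 calls with HGF in Detroit 562 became 0 under the stricter rule (adjusted p under 0.05, log2 change of 1 or more), since all 3 changes were smaller than that. With the replicate block, the count for the difference of responses rose from 0 to 4 for Detroit 562 minus FaDu and from 0 to 4 for Detroit 562 minus SCC-9, and the block changed no call of the 10 genes in the other comparisons. DESeq2 without a fold change prior called 1 for Detroit 562 minus FaDu, TWIST2 (0.67, adjusted p = 0.0165). With each library left out in turn, that count ranged from 0 to 1 and the count for Detroit 562 minus SCC-9 from 0 to 2. The library behind both was Detroit 562 control 3, without which TWIST2 was called against FaDu (0.74, adjusted p = 0.0969) and SNAI2 (0.75, adjusted p = 0.0782) and TWIST1 (0.78, adjusted p = 0.0764) against SCC-9. The cause was not tested. Levels per kilobase moved by more than the SD of their group in 55 of 60 cases with the gene extent as length and in 54 of 60 with the canonical transcript, an alternative added after seeing the data. Counts of 1 to 33 per library limit ZEB2, VIM, SNAI1 and TWIST2 in the lines where they are low.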
